A study of Mus musculus with 12 samples.

Results

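The genes described here are 10 genes of MHC class I antigen presentation: Tap1, Tap2, Tapbp, B2m, Psmb8, Psmb9, Psmb10, Psme1, Psme2 and Nlrc5. They were chosen by name, with earlier results of these data known. Each had 1 feature in the main category of the array, so all 10 were found among the 27296 genes tested, and no filter on low values removed any. Their levels were read on 12 Affymetrix Mouse Gene 2.1 ST arrays, which cover 6 clones of MH-S, a line of mouse alveolar macrophages. Clones 69, 73 and 83 are labelled as having high activity of IL-4Ra, the alpha chain of the interleukin-4 receptor, and clones 7, 29 and 75 as having low activity. The labels do not say how this activity was measured. Each clone gave 1 array after 16 h with 0.2 µg/ml of lipopolysaccharide (LPS), the bacterial cell wall component, from Salmonella Minnesota R595, and 1 array without stimulation. The 4 groups of 3 arrays are thus high clones with LPS, low clones with LPS, high clones unstimulated and low clones unstimulated. All cells share the line's origin, and no parental, uncloned MH-S culture is among the samples analysed here.

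MHC class I molecules show peptides from a cell's own proteins to CD8 T cells. The proteasome cuts proteins into peptides, and in the immunoproteasome the subunits Psmb8, Psmb9 and Psmb10 take the catalytic sites that Psmb5, Psmb6 and Psmb7 hold in the constitutive form, while Psme1 and Psme2 form the PA28 cap. Tap1 and Tap2 together pump the peptides into the endoplasmic reticulum, where tapasin (Tapbp) holds the class I molecule ready and B2m is its light chain. Nlrc5 is a transcriptional activator of class I genes. In macrophages most of these genes are known to respond to interferons.

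The 12 arrays had medians of 4.42 to 4.46 on the log2 scale, and arrays of the same group correlated at 0.992 to 0.995 over all genes. All 8 macrophage markers listed for the check lay above the median gene, which had a mean log2 level of 4.42, and Cd68, a macrophage lysosomal protein, averaged 12.32 on LPS arrays and 12.61 on unstimulated ones. Only 2 of the 9 alveolar macrophage markers did (Pparg and Fabp4), and Siglecf, a defining surface marker of alveolar macrophages, lay between 3.61 and 4.14, so the labelled cell type was not borne out by its own markers on these arrays. Of the other lists, 0 of 8 lymphocyte, 4 of 6 dendritic cell, 2 of 6 neutrophil and 2 of 10 fibroblast and epithelium markers lay above the median gene. The log2 of the summed dendritic cell markers ranged over 8.73 to 9.49 on LPS arrays and 9.01 to 9.50 on unstimulated arrays. That of the neutrophil markers ranged over 6.68 to 7.08 with LPS and 6.50 to 6.69 unstimulated, and that of the fibroblast and epithelium markers over 8.58 to 9.48 with LPS and 8.52 to 8.65 unstimulated. Both ranges reached higher with LPS, and their part in the LPS changes below was not tested. The marker that moved most was S100a8 among the neutrophil markers, from a mean of 3.61 unstimulated to 4.61 with LPS. Ly6g and Mpo also had a higher mean with LPS, whereas S100a9, Elane and Cxcr2 had a lower one. Among the fibroblast and epithelium markers Dcn moved most, from 3.37 to 4.82, with a highest value of 7.5. Col1a1, Col1a2, Pdgfra, Krt18 and Cdh1 also had a higher mean with LPS, whereas Col3a1, Epcam, Krt8 and Sftpc had a lower one. Neither list thus moved as a whole. The LPS array of low clone 75 had the narrowest spread of values, with an SD of 2.46 against 2.50 to 2.53 on the other arrays.

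Tap1, Tap2, Tapbp, Psmb8 and Psmb9 lie on chromosome 17 (mm10 coordinates of the array annotation, whole gene features). Psmb9 (chr17:34181987-34187764, minus strand), Tap1 (chr17:34187553-34197225), Psmb8 (chr17:34197721-34201454) and Tap2 (chr17:34203527-34216321) lie in this order within 34.335 kb, and Tapbp (chr17:33915899-33929290) ends 252.696 kb before Psmb9 begins. The array features of Psmb9 and Tap1 overlap by 212 bases. Psme1 (chr14:55578123-55581528) and Psme2 (chr14:55587440-55591113, minus strand) lie together within 12.991 kb. B2m lies on chromosome 2 (chr2:122147686-122153083), and Nlrc5 (chr8:94472763-94527272) and Psmb10 (chr8:105935728-105938392, minus strand) lie apart on chromosome 8. The annotation marks the probes of all 10 features, 8 for Psme2 up to 31 for Nlrc5, as unique to their gene.

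RefSeq (GRCm38.p6) windows from 250 bases before to 50 bases after the start site were at hand for 8 of the genes; Tap2 and Nlrc5 are named only. Those of Tap1, B2m and Psmb10 are printed because these genes include both members called lower in high clones with LPS and a member with no LPS call; Psmb10 was picked after its values were seen. Capitals mark matches, on either strand, of 3 motifs: GAAA and GAAA with 2 bases between them (the core of an interferon-stimulated response element), TTCNNNGAA (the core of a STAT site), and GGG and CC with 5 bases between them (the core of an NF-kB site), with overlapping matches merged. Each sequence runs 5′ to 3′ on the gene's own strand.
Tap1 (chr17:34187306-34187605, plus strand): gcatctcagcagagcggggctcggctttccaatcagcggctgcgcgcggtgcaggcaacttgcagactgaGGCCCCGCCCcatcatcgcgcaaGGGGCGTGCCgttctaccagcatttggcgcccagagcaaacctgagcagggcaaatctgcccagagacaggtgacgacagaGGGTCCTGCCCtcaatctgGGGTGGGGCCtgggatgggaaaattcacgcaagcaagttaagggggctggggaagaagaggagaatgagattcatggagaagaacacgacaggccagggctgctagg
B2m (chr2:122147437-122147736, plus strand): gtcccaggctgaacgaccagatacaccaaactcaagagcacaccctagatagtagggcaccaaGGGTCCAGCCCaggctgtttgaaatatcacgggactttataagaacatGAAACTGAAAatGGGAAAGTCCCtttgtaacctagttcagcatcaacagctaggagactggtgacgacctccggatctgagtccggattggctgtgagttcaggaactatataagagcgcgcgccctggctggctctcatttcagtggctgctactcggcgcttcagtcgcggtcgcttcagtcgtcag
Psmb10 (chr8:105938343-105938642, minus strand): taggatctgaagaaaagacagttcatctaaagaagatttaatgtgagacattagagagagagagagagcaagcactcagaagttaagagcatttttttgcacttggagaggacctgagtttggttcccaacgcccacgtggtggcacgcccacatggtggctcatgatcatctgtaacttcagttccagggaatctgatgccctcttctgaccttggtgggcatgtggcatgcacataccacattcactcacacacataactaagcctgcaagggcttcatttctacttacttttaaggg
Tap1 and Psmb9 are transcribed away from each other: their RefSeq start sites lie 226 bases apart, although their array features overlap. Their windows share 275 bases, read on opposite strands. The paired GAAA motif was found in 2 of the 8 genes, in B2m as GAAACTGAAA from position -139 and in Psme1 as TTTCGCTTTC from position 9 relative to the start site; of all 32851 windows, 3.44% hold it. TTCNNNGAA was found in 1 of 8 (Psmb8; 8.3% of all windows), the GGG and CC motif in 5 of 8 (50.8%) and CCAAT, not in capitals above, in 4 of 8 (37.4%). The Psmb10 window held none of these 4 motifs.

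The first comparison asked what LPS did to these genes over all 6 clones. With LPS 8 of the 10 genes rose and none fell, against 5.72% of all 27296 genes called higher and 6.72% called lower (limma, Benjamini-Hochberg adjusted p under 0.05). All 10 genes, but only 12299 of all genes, reached a mean log2 level of 5 in a group. The share called among those brighter genes was not counted, here or in the comparisons below. The median log2 change was 0.80 for the 10 genes and -0.01 for all genes. Tap1 rose most, 2.70-fold, and B2m and Psme2 did not pass the test. At an unadjusted p under 0.05, 9 were higher and 0 lower, against 10.8% of all genes higher and 13.1% lower. RNA came from whole cultures, so more cells that hold a transcript and more transcript per cell cannot be told apart.

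Tap1 and Tap2 encode the partners of the peptide pump. Tap1 had log2 levels of 10.02, 9.59 and 9.13 on the LPS arrays of high clones 69, 73 and 83 and of 10.79, 10.58 and 10.93 on those of low clones 7, 29 and 75, against 8.91, 8.76 and 8.07 on the unstimulated arrays of the high clones and 9.24, 8.82 and 8.63 on those of the low clones. Each clone was higher with LPS, although the LPS array of high clone 83 lay below the unstimulated array of low clone 7. The log2 change was 1.44 ± 0.17 (SE, 6 clones; limma adjusted p = 0.000118), which ranked 166 among the 1561 genes called higher.

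In the same order of groups and clones, Tap2 lay at 6.65, 6.47 and 6.25 and at 7.19, 7.38 and 6.69 with LPS, against 6.16, 5.82 and 5.67 and 6.29, 6.08 and 6.10 without. It rose in each clone, by 0.75 ± 0.13 on the log2 scale (SE; limma adjusted p = 0.00131). Each clone's Tap1 change exceeded its Tap2 change, by 0.18 in clone 73 up to 1.71 in clone 75.

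Tapbp, the bridge between pump and class I molecule, had the smallest SE of the chromosome 17 genes. Its levels were 9.86, 9.83 and 9.68 in high clones and 10.09, 10.13 and 9.92 in low clones with LPS, against 9.16, 9.01 and 8.94 in high clones and 9.11, 8.96 and 8.94 in low clones unstimulated. All 6 LPS arrays lay above all 6 unstimulated arrays, and the log2 change was 0.90 ± 0.07 (SE; limma adjusted p = 5.15e-06).

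B2m, the light chain that class I molecules need, was 1 of 124 genes with a mean log2 level of at least 12. With LPS it lay at 12.44, 12.56 and 12.42 in high clones and 12.58, 12.57 and 11.89 in low clones, against 12.41, 12.24 and 12.28 in high clones and 12.43, 12.30 and 12.39 in low clones unstimulated. The groups overlapped, and the log2 change of 0.07 ± 0.11 (SE, 95% interval -0.17 to 0.31; limma adjusted p = 0.795) did not pass the test. Low clone 75 differed from the other clones here: its B2m change was -0.50, whereas the changes of the others lay between 0.03 and 0.32. Without the LPS array of clone 75 the change over all clones was 0.18 (adjusted p = 0.111, range over all alternatives 0.111 to 0.990). Over those 124 genes the median LPS change was -0.41 in clone 75, with 110 genes lower, and between -0.06 and -0.01 in the other clones; the part of this in the B2m value was not tested.

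**Figure D1:**
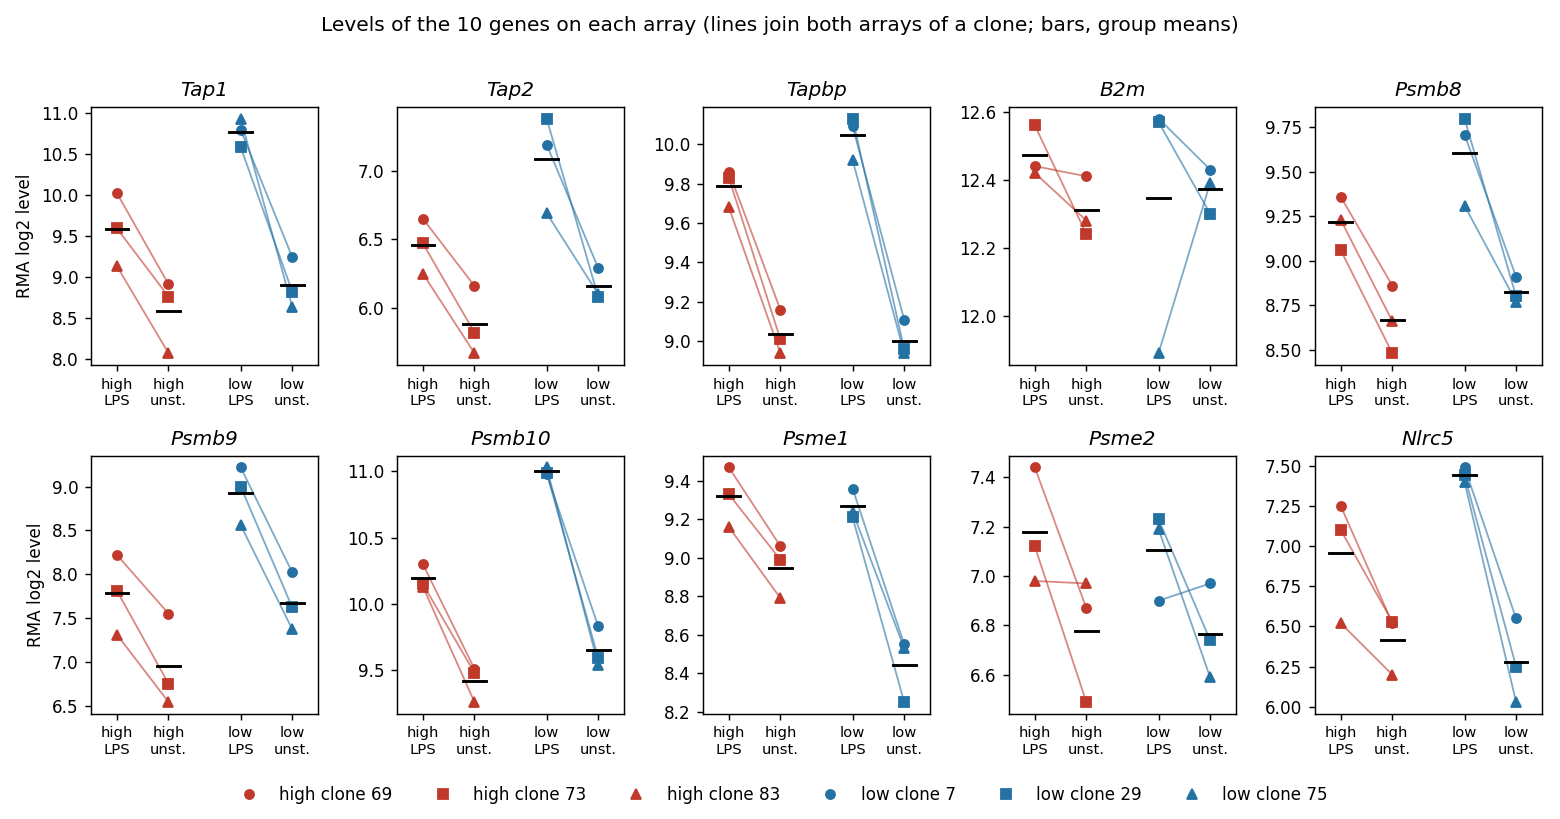
RMA log2 level of each gene on each array, with LPS arrays left of unstimulated arrays (unst.), high clones (red) left of low clones (blue), a line for each clone and bars at group means of 3 arrays; each panel has its own axis. All lines of Tap1, Tap2, Tapbp, Psmb8, Psmb9, Psmb10, Psme1 and Nlrc5 are higher at LPS, whereas B2m on the LPS array of low clone 75 lies at 11.89, below all its other values.

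The 3 catalytic immunosubunits all rose. Psmb8, which takes the site of Psmb5, had levels of 9.36, 9.06 and 9.23 in high clones and 9.71, 9.80 and 9.31 in low clones with LPS, against 8.86, 8.48 and 8.66 in high clones and 8.91, 8.80 and 8.77 in low clones unstimulated. All LPS arrays lay above all unstimulated ones, and the log2 change was 0.67 ± 0.10 (SE; limma adjusted p = 0.000615).

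Psmb9, which takes the site of Psmb6 and starts beside Tap1, lay at 8.22, 7.81 and 7.31 in high clones and 9.22, 9.0 and 8.56 in low clones with LPS, against 7.55, 6.75 and 6.54 in high clones and 8.02, 7.62 and 7.37 in low clones unstimulated. It had the largest SE of the 10 genes, and low clone 7 unstimulated lay above high clones 73 and 83 with LPS. Its log2 change was 1.04 ± 0.20 (SE; limma adjusted p = 0.0034).

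Psmb10, which takes the site of Psmb7, had levels of 10.30, 10.15 and 10.13 in high clones and 10.98, 10.99 and 11.03 in low clones with LPS, against 9.51, 9.48 and 9.26 in high clones and 9.83, 9.59 and 9.54 in low clones unstimulated. The 6 LPS arrays lay above the 6 unstimulated ones without overlap, with a log2 change of 1.06 ± 0.08 (SE; limma adjusted p = 1.81e-06).

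The genes of the PA28 cap, which opens the core of the proteasome, are Psme1 and Psme2. Psme1 lay at 9.47, 9.33 and 9.16 in high clones and 9.36, 9.21 and 9.24 in low clones with LPS, against 9.06, 8.99 and 8.79 in high clones and 8.55, 8.25 and 8.53 in low clones unstimulated. It rose by 0.60 ± 0.09 on the log2 scale (SE; limma adjusted p = 0.000393), without overlap between LPS and unstimulated arrays. Psme2 lay at 7.44, 7.12 and 6.98 in high clones and 6.90, 7.23 and 7.19 in low clones with LPS, against 6.87, 6.49 and 6.97 in high clones and 6.97, 6.74 and 6.59 in low clones unstimulated. Its log2 change of 0.37 ± 0.11 (SE, 95% interval 0.12 to 0.62) missed the threshold at an adjusted p of 0.0508. High clone 83 and low clone 7 changed by 0.01 and -0.07, and the other clones by 0.49 to 0.63.

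Nlrc5, the transactivator, lay at 7.25, 7.10 and 6.52 in high clones and 7.49, 7.44 and 7.40 in low clones with LPS, against 6.52, 6.53 and 6.20 in high clones and 6.55, 6.25 and 6.03 in low clones unstimulated. It rose in each clone, by 0.85 ± 0.13 on the log2 scale (SE; limma adjusted p = 0.000589), although high clone 83 with LPS lay no higher than high clone 69 unstimulated. In all, LPS and unstimulated arrays did not overlap for 4 of the 10 genes (Tapbp, Psmb8, Psmb10 and Psme1), as for 3.02% of all genes in the higher direction.

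In the authors' deposited table, whose q-values come from an unpaired test on untransformed values, 5 of the 10 genes had a q under 0.05, all of them higher with LPS (Tapbp, Psmb8, Psmb10, Psme1 and Nlrc5). Of the 27296 genes tested here, the authors' deposited table gives 4.25% such a q and a higher value with LPS, and 4.92% such a q and a lower value. That table, the authors' deposited table, gives Tap1 a fold of 2.89 with q = 0.0532, Tap2 a fold of 1.73 with q = 0.0751 and Psmb9 a fold of 2.15 with q = 0.137.

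Whether the immunosubunits changed apart from the constitutive subunits whose place they take was tested within clones. The LPS changes of Psmb5, Psmb6 and Psmb7 averaged 0.02 ± 0.08, 0.01 ± 0.36 and 0.05 ± 0.10 on the log2 scale (SD, n = 6 clones). The change of Psmb8 exceeded that of Psmb5 by 0.645 ± 0.147, that of Psmb9 exceeded that of Psmb6 by 1.03 ± 0.431, and that of Psmb10 exceeded that of Psmb7 by 1.01 ± 0.387 (SD, n = 6 clones). Each of the 3 differences was positive in 6 of 6 clones, with a p of 0.03125 by the exact two-sided sign-flip permutation test, before and after adjustment over the 3 pairs, which is the smallest p that 6 clones can give. The widest single gap was that of Psmb9 and Psmb6 in low clone 75, at 1.86, where Psmb6 changed by -0.67. Without clone 75 the mean gap of this pair was 0.866. The LPS array of clone 75 was the one with the narrowest spread of values (SD 2.46), and the part of this in the gap was not tested.

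**Figure D2:**
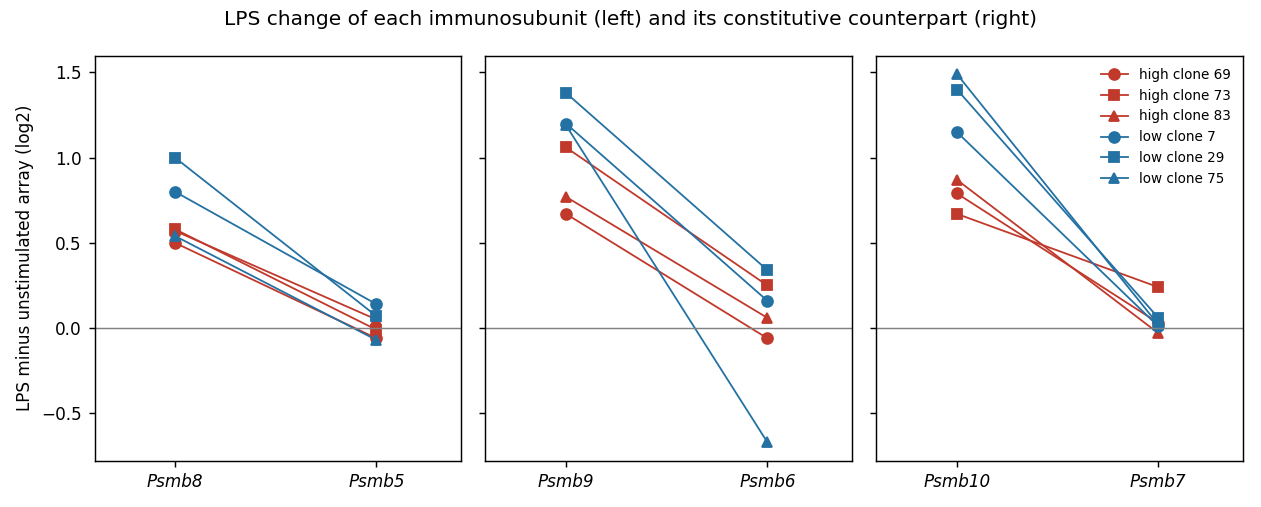
LPS change (log2, LPS minus unstimulated array of a clone) of each immunosubunit at the left and of its constitutive counterpart at the right, 1 line per clone. Each line runs downward: counterparts lie between -0.67 and 0.34, and immunosubunits between 0.50 and 1.49.

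The second set of comparisons took the LPS response in high and in low clones separately; they share a fit, and each uses its own 6 arrays for the difference. In high clones 3 of the 10 genes rose (Tap1 by 1.00 ± 0.25, Tapbp by 0.75 ± 0.11 and Psmb10 by 0.78 ± 0.11; log2, SE), with limma adjusted p of 0.0407, 0.00135 and 0.00144, against 1.82% of all genes called higher and 2.06% called lower. With the clone as a block, which compares each clone with itself, 8 of the 10 rose in high clones, against 3.04% of all genes called higher and 3.62% called lower in that fit. The added genes were Tap2 (blocked adjusted p 0.0337, range over alternatives 0.0337 to 0.416), Psmb8 (0.0163, range 0.0163 to 0.234), Psmb9 (0.00213, range 0.00213 to 0.524), Psme1 (0.0461, range 0.0461 to 0.367) and Nlrc5 (0.0279, range 0.0224 to 0.447). The Tap1 call in high clones was lost in 14 of 25 alternatives, with adjusted p up to 0.172. Among the leave-outs it held only without both arrays or the LPS array of clone 83, or without the unstimulated array of clone 69, 7 or 75.

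In low clones 8 of the 10 genes rose, against 3.59% of all genes called higher and 4.13% called lower. Their log2 changes were 1.87 ± 0.25 for Tap1, 1.35 ± 0.11 for Psmb10, 1.26 ± 0.28 for Psmb9, 1.17 ± 0.18 for Nlrc5, 1.04 ± 0.11 for Tapbp, 0.93 ± 0.18 for Tap2, 0.83 ± 0.12 for Psme1 and 0.78 ± 0.14 for Psmb8 (SE; limma adjusted p of 8.49e-06 to 0.0151). B2m and Psme2, at -0.03 ± 0.16 and 0.34 ± 0.16, did not pass. Leaving out both arrays of clone 29 ended the calls of Psmb9, Tap2 and Psmb8, with adjusted p up to 0.121, 0.0823 and 0.0637 over the 25 alternatives. The Tap2 call was also lost without both arrays of clone 7, and the Psmb9 call when clone 7 or 75 was dropped entirely and when 1 array was dropped, either clone 7 with LPS or clone 29 or 75 unstimulated. LPS and unstimulated arrays did not overlap for 8 of the 10 genes in high clones (all but Psmb9 and Nlrc5; 9.18% of all genes) and for 8 in low clones (all but B2m and Psme2; 11.8% of all genes). In fold terms Tap1 was 2.00-fold higher with LPS in high clones and 3.66-fold higher in low clones. The 10 genes had a median change of 0.56 in high clones and 0.99 in low clones, against -0.01 for all genes in either.

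The difference between these responses was tested itself. Within clones, Tap1 changed by 1.11, 0.83 and 1.06 in high clones 69, 73 and 83 and by 1.55, 1.76 and 2.30 in low clones 7, 29 and 75. Psmb10 changed by 0.79, 0.67 and 0.87 in high clones and by 1.15, 1.40 and 1.49 in low clones. Nlrc5 changed by 0.73, 0.57 and 0.32 in high clones and by 0.94, 1.19 and 1.37 in low clones. For 6 of the 10 genes (Tap1, Tapbp, Psmb9, Psmb10, Psme1 and Nlrc5) each low clone changed more than each high clone, as for 6.69% of all genes. Psme1 changed by 0.41, 0.34 and 0.37 in high clones and by 0.81, 0.96 and 0.71 in low clones. The high minus low difference of response was -0.87 ± 0.35 for Tap1, -0.63 ± 0.26 for Nlrc5, -0.57 ± 0.15 for Psmb10 and -0.45 ± 0.17 for Psme1 (log2, SE), and these 4 had an unadjusted p under 0.05, as did 2.82% of all genes in that direction. None of the 10 passed the adjusted test in limma, whose adjusted p lay between 0.932 and 0.997, and with the clone block 5 had an unadjusted p under 0.05 and a difference below 0, against 4.11% of all genes, and 0 passed (adjusted p 0.385 to 0.964). Over all genes 0 were called higher and 3 lower in this difference, which is 0.011%.

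**Figure D3:**
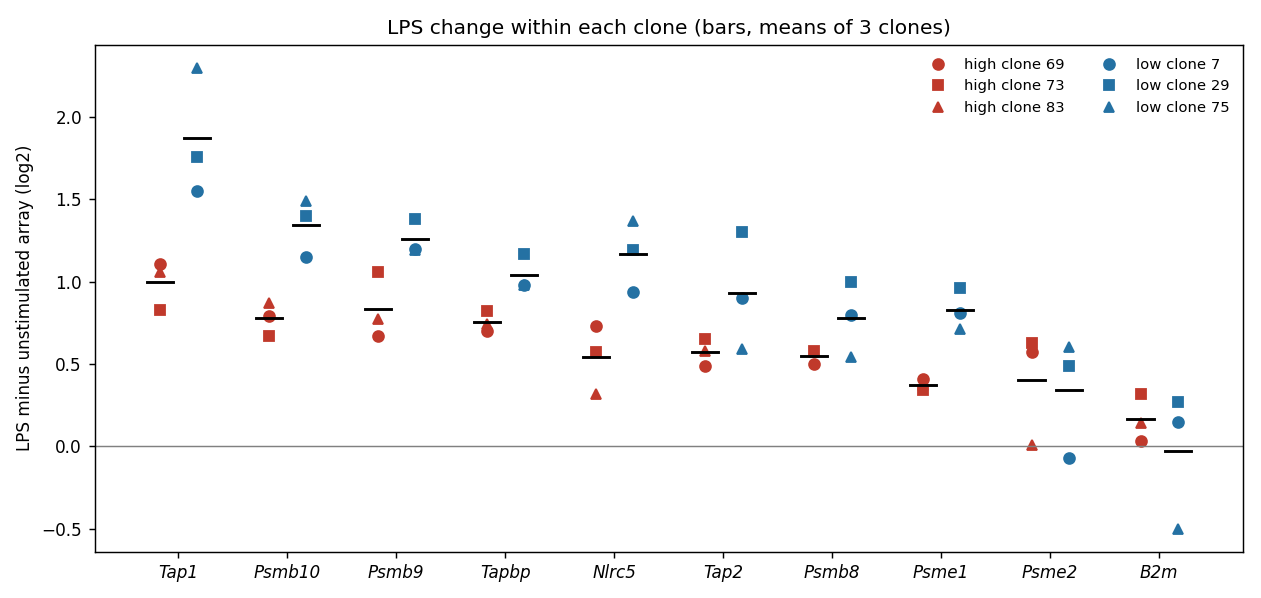
LPS change of each gene within each clone (log2), high clones (red) left of low clones (blue), bars at the mean of 3 clones. The low clones lie above the high clones without overlap for Tap1, Psmb10, Psmb9, Tapbp, Nlrc5 and Psme1, with the widest range in Tap1, 0.83 to 2.30.

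The third set of comparisons set high against low IL-4Ra activity clones. With LPS 2 of the 10 genes were lower in high clones and none higher, against 0.333% of all genes called lower and 0.982% called higher. Tap1 averaged 9.58 ± 0.45 in high clones and 10.77 ± 0.18 in low clones (SD, n = 3 each), a difference of -1.19 ± 0.25 (SE; limma adjusted p = 0.036). Psmb10 averaged 10.19 ± 0.09 in high clones and 11.00 ± 0.03 in low clones (SD, n = 3 each), a difference of -0.81 ± 0.11 (SE; limma adjusted p = 0.00415). The Psmb10 call held in 24 of 25 alternatives, whereas the Tap1 call was lost in 12 of 25. Leaving out clone 73, 83, 7, 29 or 75, as a whole or by its LPS array, ended the Tap1 call, as did leaving out the unstimulated array of clone 29, with adjusted p up to 0.159.

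Psmb9, Tap2, Nlrc5, Psmb8 and Tapbp also lay lower in high clones with LPS but did not pass. The differences were -1.15 ± 0.28 for Psmb9 (adjusted p = 0.0787), -0.63 ± 0.18 for Tap2 (0.140), -0.49 ± 0.18 for Nlrc5 (0.308), -0.39 ± 0.14 for Psmb8 (0.297) and -0.26 ± 0.11 for Tapbp (0.375; log2, SE, limma). B2m, Psme1 and Psme2 differed by 0.13, 0.05 and 0.07. For 6 of the 10 genes (Tap1, Tap2, Tapbp, Psmb9, Psmb10 and Nlrc5) each high clone with LPS lay below each low clone with LPS, as for 7.7% of all genes. The median difference was -0.44 for the 10 genes and -0.0033 for all genes.

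Without stimulation none of the 10 genes passed the test in limma, against 0.92% of all genes called higher and 0.216% called lower. At an unadjusted p under 0.05, 1 was higher and 2 were lower in high clones, against 5.8% of all genes higher and 4.69% lower. Psme1 was the higher one: it averaged 8.95 ± 0.14 in high clones and 8.44 ± 0.17 in low clones (SD, n = 3 each), without overlap (7.97% of all genes), a difference of 0.50 ± 0.12 (SE; adjusted p = 0.0738). With genes of mean log2 level under 5 left out, or with a trended robust variance, Psme1 passed, and its adjusted p ranged over 0.0362 to 0.342 in the alternatives. Psmb9, at -0.72 ± 0.28 (adjusted p = 0.357), and Psmb10, at -0.24 ± 0.11 (adjusted p = 0.475), were the lower ones; of the 10 genes, Psmb10 alone lay lower in high clones without overlap, as did 7.68% of all genes. Tap1 differed by -0.32 ± 0.25 (adjusted p = 0.749), and the remaining 6 genes by -0.27 to 0.14.

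With the mean of both arrays of a clone as the replicate, Psmb10 alone of the 10 was lower in high clones, by 0.52 ± 0.09 on the log2 scale (SE, n = 3 clones each; limma adjusted p = 0.0332), against 0.223% of all genes called lower and 1.05% called higher. With the clone as a random block over all 12 arrays 3 were lower, against 0.685% of all genes called lower and 1.94% called higher: Psmb10 (adjusted p = 0.00475, range over alternatives 0.00475 to 0.122), Psmb9 (-0.94; 0.0263, range 0.0263 to 0.367) and Tap1 (-0.75; 0.0478, range 0.0478 to 0.388). That fit used 1 correlation of 0.21 between both arrays of a clone for all genes. Whether the arrays of a clone are more alike than that for Psmb9 and Tap1 was not tested. On clone means these 2 genes did not pass (limma adjusted p = 0.140 and 0.148). The Psmb10 call on clone means was lost when any 1 of the 6 clones was left out, with an adjusted p of 0.0513 to 0.122. Without clone 69, Psmb9 was instead the 1 gene called lower, at an adjusted p of 0.0435.

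**Figure D4:**
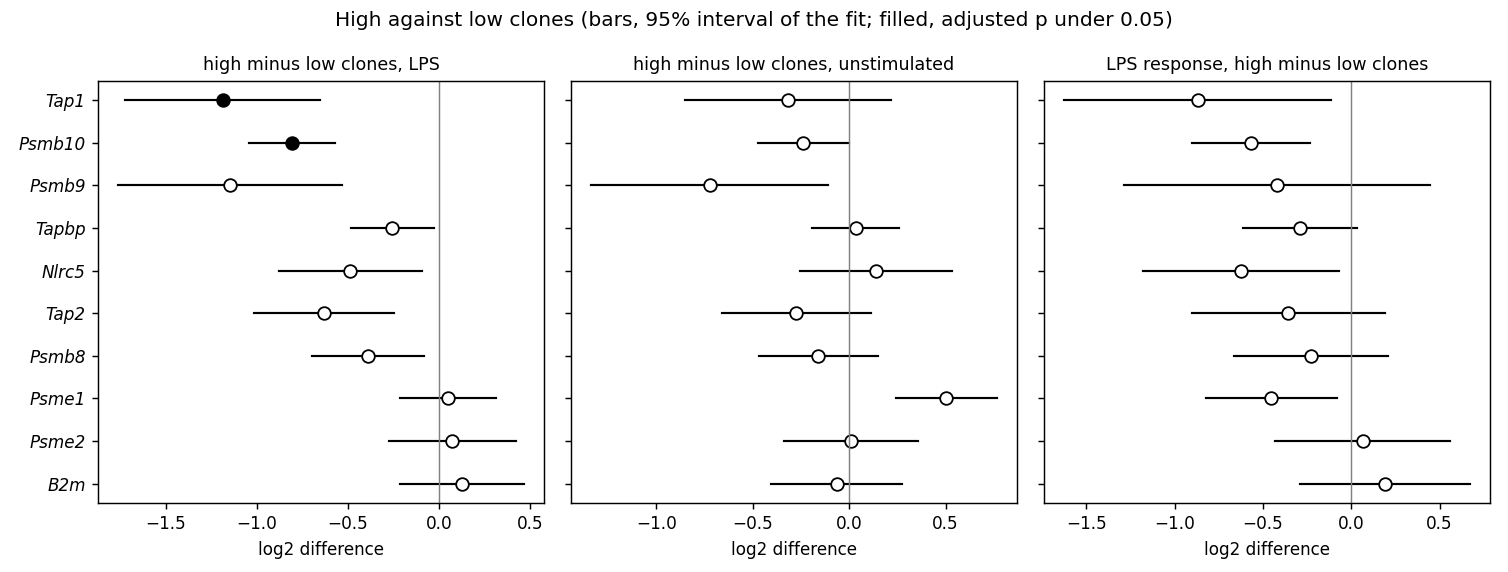
Difference of high and low clones for each gene (log2, points with 95% intervals of the limma fit; filled points, adjusted p under 0.05), on LPS arrays, on unstimulated arrays and for the LPS response. Tap1 and Psmb10 on LPS arrays are the only filled points; Psme1, at 0.50, stands right of 0 on unstimulated arrays.

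The class I heavy chains, the partners of B2m, were followed through a list of class I and class I-like genes, of which 16 were measured. Over all clones 7 rose and 2 fell with LPS, against 5.72% of all genes called higher and 6.72% called lower. With the clone block 9 rose and 2 fell, against 1955 and 2407 of all 27296 genes. The median change of the 16 was 0.37. H2-M2 rose by 3.38 ± 0.19, H2-T24 by 1.67 ± 0.19, H2-Q4 by 1.64 ± 0.12 and H2-T22 by 1.29 ± 0.13 on the log2 scale (SE; limma adjusted p of 1.63e-07 to 7.81e-05). The annotation marks the H2-Q4 probes as able to bind other transcripts, and class I heavy chains are near copies of each other, so single values are uncertain. Mr1, which presents vitamin metabolites, and Fcgrt, the neonatal antibody receptor, are class I-like and fell, by 1.13 ± 0.17 and 1.03 ± 0.12 on the log2 scale (SE; limma adjusted p = 0.000647 and 7.83e-05). High against low clones with LPS, 1 of the 16 was lower and none higher, against 0.333% and 0.982% of all genes. This was H2-T22, which had 10.44, 10.05 and 9.87 in high clones and 10.96, 10.92 and 11.30 in low clones. The H2-T22 difference was -0.94 ± 0.19 (SE, limma adjusted p = 0.0284). No measured feature carries the symbol H2-K1. The feature LOC101056305 (chr17:33996012-34000333) begins at the RefSeq start of H2-K1 and changed by 0.53 ± 0.09 with LPS (SE; limma adjusted p = 0.00162); it was looked up after values were seen.

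Of 12 genes listed for the endoplasmic reticulum 2 rose and 1 fell with LPS, against 5.72% of all genes higher and 6.72% lower. The median change of the 12 was -0.01. Erap1, the aminopeptidase that trims peptides there, rose by 0.52 ± 0.09 (log2, SE; limma adjusted p = 0.00188), with 8.43, 8.59 and 8.27 in high clones and 8.93, 9.08 and 8.85 in low clones with LPS, against 8.0, 8.16 and 7.73 in high clones and 8.50, 8.35 and 8.31 in low clones unstimulated. Lrmda, a gene not known to belong to this pathway that the list nevertheless held, rose by 0.29 ± 0.09 (adjusted p = 0.0469), and Lnpep, an aminopeptidase of endosomes, fell by 0.23 ± 0.07 (limma adjusted p = 0.0498; 0.0627 with the clone block). With the clone block 3 rose and 0 fell, against 1955 and 2407 of all 27296 genes. None of 8 measured cytosolic peptidases passed in limma (0 higher and 1 lower with the clone block), and their median change was 0.01.

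Among 36 measured genes of the constitutive proteasome and its regulators 3 rose and none fell with LPS (5 and 0 with the clone block). Over all genes 5.72% were called higher and 6.72% lower, and with the clone block 1955 and 2407 of 27296. The median change of the 36 was 0.07. The risen genes were Psma4 (0.34 ± 0.07), Psma6 (0.31 ± 0.07) and Psmd7 (0.30 ± 0.07; log2, SE, limma adjusted p of 0.0038 to 0.013), the first 2 being alpha-ring subunits of the core and Psmd7 a lid subunit of the regulatory particle.

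Of 18 measured transcriptional regulators tied to class I genes 5 rose and 2 fell with LPS (6 and 2 with the clone block). Over all genes 5.72% were called higher and 6.72% lower, and with the clone block 1955 and 2407 of 27296. The median change of the 18 was 0.15. Nfkb1, an NF-kB subunit, rose by 1.47 ± 0.07, Stat2 by 1.45 ± 0.15 and Irf1 by 0.92 ± 0.12 (log2, SE; limma adjusted p of 6.84e-08 to 0.00027). Stat2 carries interferon signals, and Irf1 is an interferon-induced factor that binds class I promoters. Irf1 had 7.66, 7.40 and 7.17 in high clones and 8.24, 7.84 and 7.47 in low clones with LPS, against 6.81, 6.58 and 6.51 in high clones and 6.86, 6.74 and 6.76 in low clones unstimulated. All LPS arrays of Irf1 lay above all its unstimulated arrays, as for 3.02% of all genes. Stat2 lay 0.90 ± 0.21 lower in high than in low clones with LPS on the log2 scale, which missed the threshold (limma adjusted p = 0.0596; 0.0417 with the clone as a block). Nfya, a subunit of the CCAAT-binding factor, fell by 0.38 ± 0.07 and Bcl6, a repressor, by 0.32 ± 0.07 with LPS (limma adjusted p = 0.00266 and 0.0111). Ciita, the class II relative of Nlrc5, changed by 0.34 ± 0.12 and did not pass (adjusted p = 0.0831).

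The neighbours on the chromosome were followed as well. Within 500 kb of Tap1 lie 63 measured genes outside the 10, of which 13 rose and 6 fell with LPS over all clones. Over all genes 5.72% were called higher and 6.72% lower with LPS. The median change of the 63 was 0.10. Only 1 of them, the MHC class II gene H2-Ea, changed more than Tap1, by 1.69 at a mean log2 level of 4.67. H2-Ea was named after its value was seen. High against low clones with LPS, these 63 had a median of -0.08, and all lay above the -1.19 of Tap1. Of the 63, 1 was called lower, against 0.333% of all genes. Of the 40 genes within 500 kb of Psmb10, 4 rose and 4 fell with LPS, against the same 5.72% and 6.72% of all genes. Their median was 0.01 and none changed more than Psmb10. Around Psme1 the picture was another. Of 48 genes within 500 kb, 6 were called higher and none lower in high than in low clones without stimulation. Their median was 0.245, and over all genes 0.92% were called higher and 0.216% lower. With LPS 7 of the 48 were called higher and none lower, against 0.982% and 0.333% of all genes. The neighbours' part in the unstimulated Psme1 difference was not tested.

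**Figure D5:**
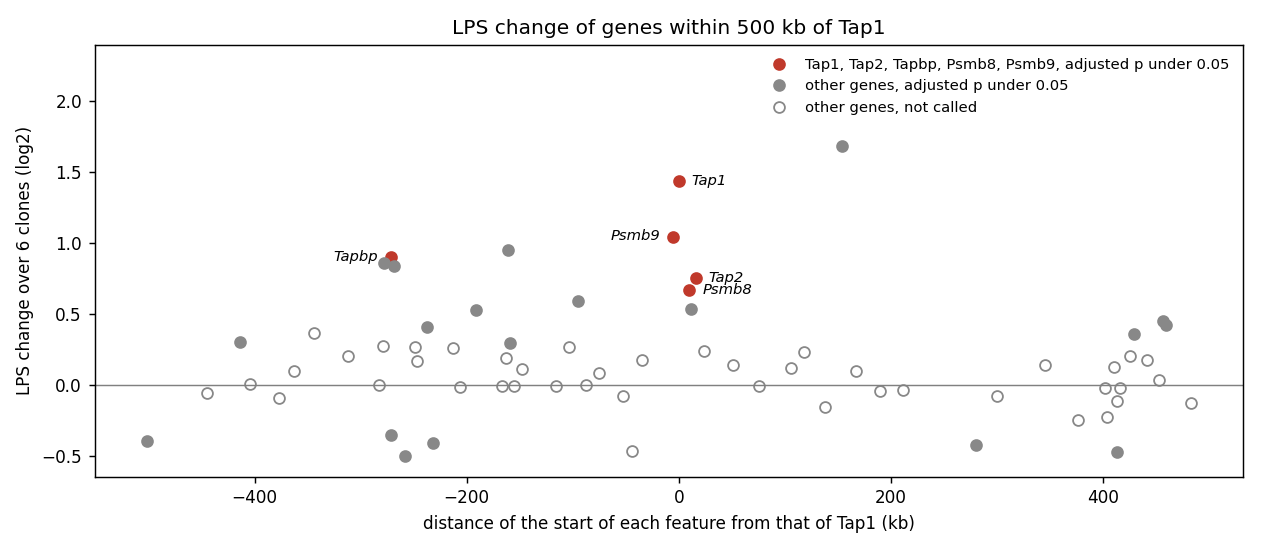
LPS change over 6 clones (log2) of the measured genes within 500 kb of Tap1 against the distance of each feature's start from that of Tap1 (kb); red, Tap1, Tap2, Tapbp, Psmb8 and Psmb9, all called; grey filled, other genes called; open, not called. The red points lie between 0.67 and 1.44, while the median of the 63 other genes is 0.10.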

How the data were processed

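RNA of 6 MH-S clones was measured on 12 Mouse Gene 2.1 ST arrays. The authors' deposited log2 values are RMA values (background correction, quantile normalization and median polish), per the file headers, and the submitters' processing notes name Affymetrix Expression Console; the annotation is NetAffx build 34 on mm10. The authors' deposited table also gives a fold change score written as minus the inverse where under 1, and p-values and q-values of an unpaired test. Quantile normalization gives all arrays nearly the same distribution, so changes are relative to the other genes of an array. Of 41345 features, 29294 in the main category carry a symbol; where a gene had several, the one with the highest mean was kept, leaving 27296 genes. There were 0 columns of values per sample left unused. The number of arrays limits the precision, since depth has no meaning here.

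Groups came from the labels. limma 3.58.1 (lmFit, eBayes, two-sided) was fitted to the 4 groups in R 4.3.3 with no clone term; p-values were adjusted by Benjamini-Hochberg over all genes, and called means an adjusted p under 0.05. The p-values of this fit measure the spread between clones of the same line. Those of LPS changes with the clone block, and of the sign-flip test, measure how changes within clones vary between clones. Both arrays of a clone pair by design, and their deviations from group means correlated at 0.10 to 0.42, above those with any other clone. The clone as a block (fixed for LPS changes, random with duplicateCorrelation for high against low) is the alternative, with a consensus correlation of 0.21. Other alternatives were leaving out arrays or clones, median centring, a brightness filter at log2 5, all features, a trended robust prior, 6 arrays alone, a log2 change of at least 1 and the methods' t-test. Subunit pairs used an exact sign-flip test over 6 clones. Of these steps, only the main fit was tested on simulated data, for the LPS change over all clones. Named genes are the 10 genes, up to 4 called genes per list and direction, 3 constitutive subunits, Irf1, Ciita and the 5 nearest profiles of Tap1, Psmb9 and Nlrc5, by root mean square difference of centred log2 values; values of 1 listed gene are not reported here. The genes, lists, motifs and tests were chosen with earlier results of these data known.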

Additional observations from a re-analysis of the deposited data

Results flagged for a closer look

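Of 30 groups of 6 values tested for an outlying sample (levels of the 10 genes on LPS arrays, levels on unstimulated arrays and LPS changes), 2 held one, and chance gives about 1 in 20. Each group of 6 mixes high and low clones, which the 1 in 20 does not allow for. The 2 flags share 1 LPS array, so they are not independent, and both concern B2m in low clone 75. Its level on the LPS array of that clone was 11.89, against 12.42 to 12.58 on the other LPS arrays. Its LPS change in that clone was -0.50, against 0.03 to 0.32 in the other clones. The median LPS change of the 124 brightest genes, -0.41 in clone 75, was also the lowest of the 6 clones; the part of this in the B2m values was not tested.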

How the results depend on the processing

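Counts are of the 10 genes called. Of all 27296 genes the methods' t-test called 2449, in either direction. For LPS in high clones the clone block called 3.04% of all genes higher, and on clone means 0.685% lower. For the other alternatives the share of all genes was not counted, so a test that turned stricter for every gene cannot be told apart. With LPS over all clones 8 became 3 at a log2 change of at least 1 and 5 by the methods' t-test, and stayed within 8 to 9 when 1 array or clone was left out. In high clones 3 became 8 with the clone block, 1 at a log2 change of at least 1, and 2 to 5 when 1 array or clone was left out (5 without the unstimulated array of clone 69). In low clones 8 became 5 at a log2 change of at least 1 and 5 to 8 with leave-outs (5 without clone 29). For high against low clones with LPS 2 became 1 with the 6 arrays alone, 1 at a log2 change of at least 1 and 1 to 3 with leave-outs. Without stimulation 0 became 1 with the brightness filter and 1 with a trended robust prior (Psme1 in each). On clone means 1 became 3 with the clone block, 0 at a log2 change of at least 1 and 0 to 1 with leave-outs. The clone block changed no other count of calls of the 10 genes by over 1.5 times. Asking for a log2 change of at least 1 can only remove calls, by construction. The cause of the other changed counts was not tested.

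Over 70 results for single genes and 1610 alternatives, 1489 kept direction and side of the threshold, 56 lost the call, 31 gained one and 34 changed sign. Psme2 between high and low clones unstimulated was -0.0067 with arrays centred on their medians. The other sign changes came from leave-outs of results near 0, with ranges of -0.0058 to 0.187 (B2m, LPS, all clones), -0.175 to 0.210 (B2m, LPS, low clones), -0.102 to 0.243, -0.025 to 0.130 and -0.057 to 0.173 (B2m, Psme1 and Psme2, high against low with LPS), -0.028 to 0.087 and -0.087 to 0.153 (Tapbp and Psme2, unstimulated), -0.047 to 0.338 and -0.142 to 0.260 (B2m and Psme2, difference of responses), and -0.078 to 0.104 and -0.047 to 0.128 (B2m and Psme2, clone means). Psme2 with LPS over all clones passed in 8 of 25 alternatives (adjusted p 0.0289 to 0.200). The subunit differences kept their sign throughout.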

Other observations

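The genes whose profile over the 12 arrays was nearest to that of Tap1, after centring each on its own mean, were Tlr3, a sensor of double-stranded RNA, with a root mean square difference of 0.155, LOC101055663 with 0.156, Uba7, the activating enzyme of the interferon-induced modifier Isg15, with 0.212, H2-T22 with 0.215 and Stat2 with 0.219. The median over all genes was 0.911. Psmb10 ranked 22 and Psmb9 ranked 30 in nearness to Tap1, while B2m ranked 12402. Nearest to Psmb9 were Trim34a (0.258), Herc6 (0.270), the cytokine Il15 (0.271), Nmi (0.277) and Olfr56 (0.311), against a median of 0.811, with Tap1 at rank 12 and Tap2 at rank 19. Nearest to Nlrc5 were the kinase Tyk2, which acts at interferon receptors (0.144), Gm10499 (0.148), Parp12 (0.159), Mcoln2 (0.161) and the RNA editor Adar (0.169), against a median of 0.542, with Tapbp at rank 9. These are descriptions over 12 arrays that share clones and LPS treatment, and genes with small changes have small differences from each other.

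Clones of the same group kept different places in the 10 genes. High clone 83 had the lowest LPS level of the 6 clones for 7 of the 10 genes and the lowest unstimulated level for 5, whereas low clone 7 had the highest unstimulated level, ties included, for 8. Among the counterparts, Psmb5 had 11.59, 11.50 and 11.68 in high clones and 11.25, 11.15 and 11.13 in low clones with LPS. The groups did not overlap, as for 7.55% of all genes in the higher direction. Psmb5 differed by 0.41 ± 0.09 there, which missed the threshold (SE, limma adjusted p = 0.053). It was higher in high clones without stimulation, by 0.47 ± 0.09 (SE; limma adjusted p = 0.0329), and on clone means, by 0.44 ± 0.08 (SE; limma adjusted p = 0.0436).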
